A study of Mus musculus with 14 samples.

Results

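Carbonic anhydrases were followed in RNA sequencing of mouse bone marrow cells. The group comprised 9 genes of 55367 gene symbols in each of 2 count tables: Car1, Car2, Car3, Car4, Car5b, Car7, Car9, Car12 and Car13. They were taken by symbol, and they were picked from the family with the results of both comparisons in view. Their values, fold changes and calls are therefore a description and not a test of the family. The remaining 7 family genes in the tables, Car5a, Car6, Car8, Car10, Car11, Car14 and Car15, were kept as non-members.

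All 14 libraries came from lineage-negative marrow cells of wild-type genotype, a primary culture enriched for blood stem and progenitor cells and grown with SCF and the interleukins IL6 and IL3. Experiment 1 has 3 libraries from cells given a control lentivirus with luciferase and 3 from cells given a lentivirus with the mutant SETBP1-D868N. In experiment 2, the cells of all 8 libraries carried the SETBP1-D868N lentivirus, the controls included. They then received DMSO (4 libraries) or 2.5 µM PF-9363, an inhibitor of MYST histone acetyltransferases (4 libraries), for 4 days. Animals, pooling and the promoter of the lentivirus are not given in the sources used here. Nothing in the labels says whether the replicates came from separate animals, so errors and p-values cover the spread between these libraries, which may be technical.

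Carbonic anhydrases are zinc enzymes that turn carbon dioxide and water into bicarbonate and a proton. The isoforms differ in where they sit: Car1, Car2, Car3, Car7 and Car13 are cytosolic, Car5b is mitochondrial, Car4 is held on the cell surface by a lipid anchor, and Car9 and Car12 cross the plasma membrane with the catalytic domain outside. In blood, Car1 and Car2 are known as abundant proteins of red cells, Car2 supplies protons to bone-resorbing osteoclasts, and Car9 is a textbook target of the hypoxia-inducible factors.

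Depth was 60147266 to 68730322 counts per library in experiment 1, and only 7083731 to 10359093 in experiment 2. A count of 0 thus allowed up to 0.0447 to 0.0505 CPM (the count scaled to library depth with TMM factors) in the former, against 0.272 to 0.466 CPM in the latter, for counting error only. Counts of Setbp1 were 5, 6 and 6 with luciferase and 23, 20 and 24 with SETBP1-D868N, the direction the labels imply. These low counts met the filter minimum in the SETBP1-D868N libraries alone and are a weak check of the labels. Libraries of experiment 2, all with the mutant, held 0 to 2 counts of Setbp1 and gave no check. Of the lineage-negative label, Kit, listed as a marker both of progenitors and of mast cells, was at 180.4 ± 2.81 CPM (SD, n = 3) with luciferase. The summed level of 8 neutrophil genes reached 24043 to 25036 CPM, and that of 10 mast cell and basophil genes, Kit included, 5915.1 to 6131.5 CPM. The cultures thus also held RNA of maturing granulocytes and of mast cells or basophils, and Kit alone does not show progenitors. In bulk RNA, fewer cells of a type and less RNA per cell cannot be told apart.

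Per length, Car2 made up most of the RNA of the 9 members in the first experiment, and its share was larger with SETBP1-D868N than with luciferase. The non-member Car8, outside this sum and order, stood at 3.69 to 4.07 CPM per kb with luciferase and 1.24 to 1.54 with SETBP1-D868N. Levels were divided by the exon length of each gene in GENCODE M21, which may differ from the annotation used for counting. With luciferase, Car2 stood at 18.8 to 19.8 CPM per kb, or 56.3% to 58.6% of the sum over the 9 genes, followed by Car13 at 6.08 to 6.59 and Car9 at 2.66 to 3.08 CPM per kb. In that order each gene lay above the next without overlap between libraries down to Car1. Car7 and Car3 were lowest, at 0.0834 to 0.148 and 0.0911 to 0.109 CPM per kb, and overlapped. With SETBP1-D868N, the share of Car2 was 80.0% to 81.1%, and the sum over the 9 genes went from 32.8 to 33.8 up to 89.0 to 93.6 CPM per kb. Car1 moved from seventh to the third place, at 3.26 to 3.76 CPM per kb. Here Car3 and Car4 overlapped, and every other neighbouring pair did not.

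**Figure D1:**
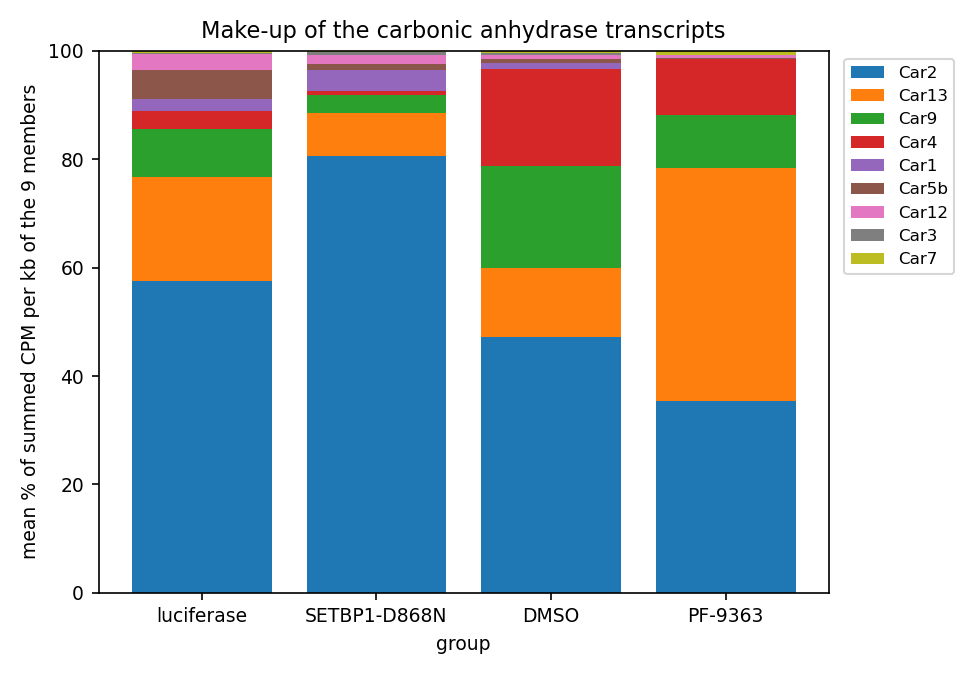
Stacked bars give the mean share (%) of each of the 9 genes in their summed CPM per kb, for each group (n = 3 in the first 2 groups, n = 4 in DMSO and PF-9363). Car2 takes 57.6% with luciferase and 80.6% with SETBP1-D868N, and Car13 goes from 12.7% with DMSO to 43.1% with PF-9363. The first 2 and last 2 bars come from separately normalized tables.

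The second experiment had another make-up. With DMSO, Car2 held 43.9% to 50.9% of the per-length sum at 10.9 to 13.4 CPM per kb. Car9, Car4 and Car13 came next at 4.80, 4.66 and 3.21 CPM per kb on average. Neighbours among these 3 overlapped between libraries, with Car4 ranging from 2.27 to 7.37 CPM per kb. The other 5 members each had at most 0.399 CPM per kb in any DMSO library. With PF-9363, Car13 came first at 10.6 to 14.8 and Car2 next at 10.04 to 11.8 CPM per kb, and their libraries overlapped. Although the SETBP1-D868N group and the DMSO group both carried the mutant, their levels stood apart: Car2 read 177 ± 4.99 CPM (SD, n = 3) in the former and 29.2 ± 2.58 CPM (SD, n = 4) in the latter. RNA input (500 against 100 ng), library preparation, depth and the added DMSO differ between those groups and cannot be told apart here, and no test was made across the tables.

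SETBP1-D868N libraries were first set against luciferase libraries. All 9 members passed the filter on low counts and were tested in a fit over 15794 genes. At an edgeR adjusted p under 0.05 (the call used throughout), 5 members were higher (Car1, Car2, Car3, Car12 and Car13), 2 were lower (Car4 and Car5b), and Car7 and Car9 were not called. Of all genes tested, 47.2% were called, 24.5% higher and 22.7% lower. Groups did not overlap for 7 of the 9 members, against 56.7% of all genes. The median log2 fold change of the members was 0.19, against 0.0043 over all genes, and nothing is read from this, since the members were chosen on it.

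**Figure D2:**
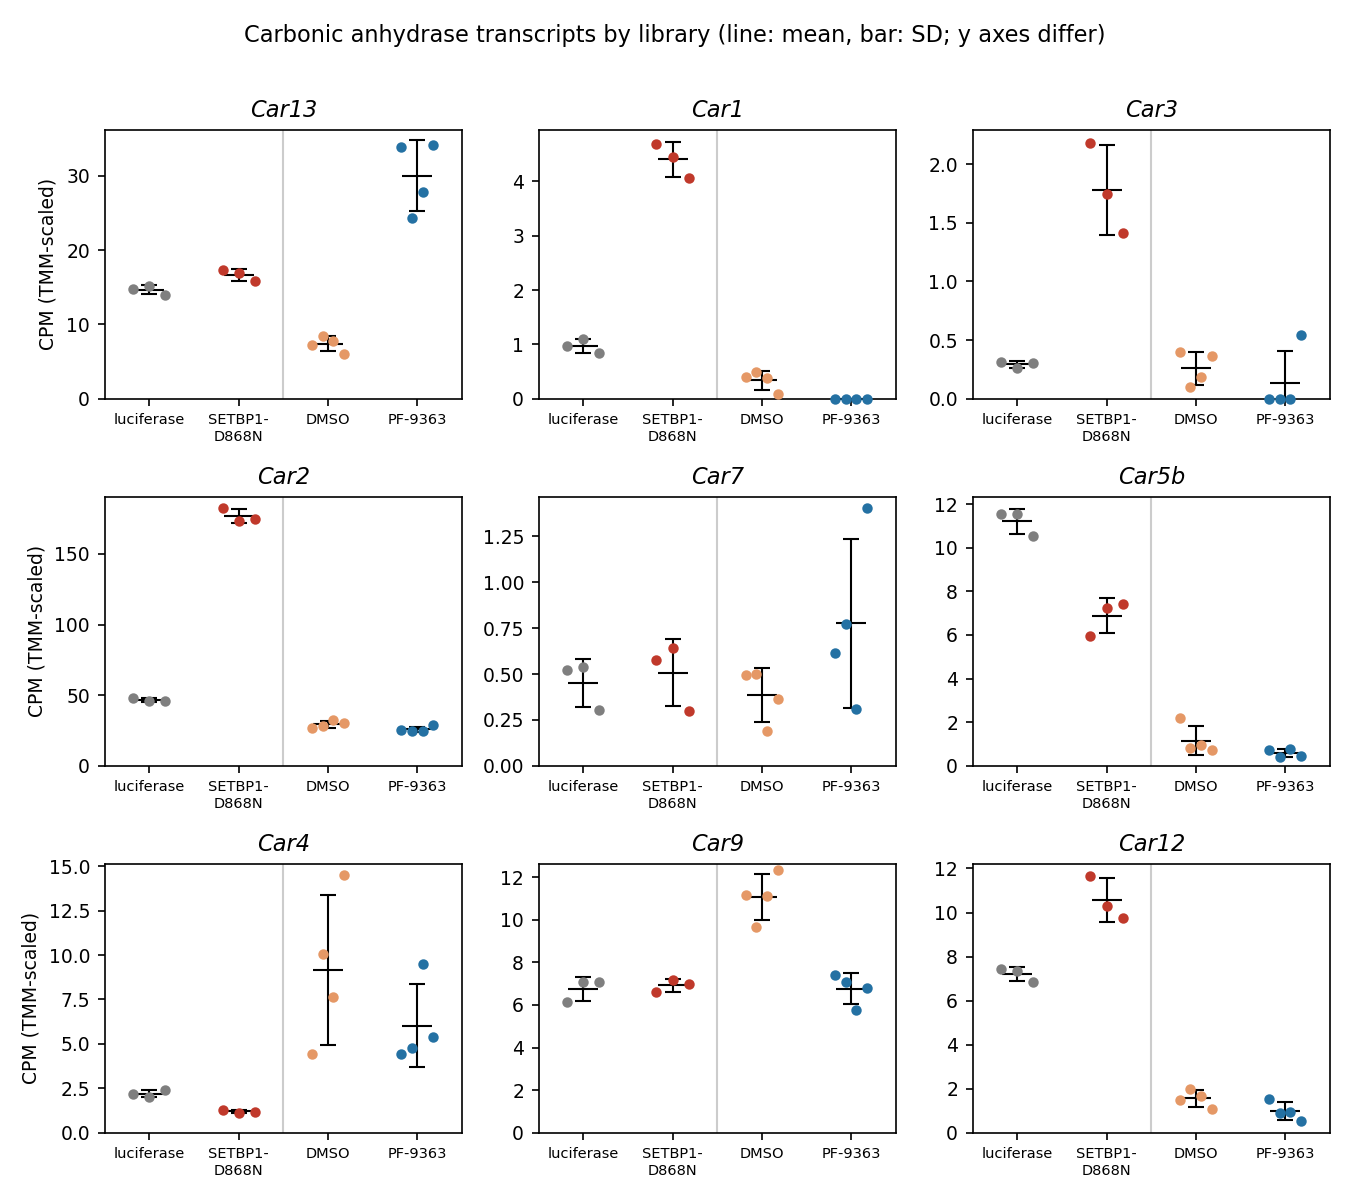
Each panel shows CPM (TMM-scaled) of a member in every library as points, with the group mean (line) and SD (bar); y axes differ between genes and start at 0, and the grey line parts the 2 experiments. Car1, Car2 and Car3 are high in the 3 SETBP1-D868N libraries, at 4.07 to 4.69, 173 to 183 and 1.42 to 2.18 CPM, and Car13 in the 4 PF-9363 libraries, at 24.3 to 34.1 CPM.

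Of the cytosolic enzymes, Car2, the fast and widespread isoform, had 48.0, 45.6 and 45.9 CPM in luciferase libraries 1 to 3 and 183, 173 and 175 CPM in the SETBP1-D868N libraries. The 2 groups were far apart beside the spread within each. Its log2 fold change was 1.93 (SE 0.033), or 3.81-fold. Car1, the other red cell isoform, had 0.967, 1.11 and 0.842 CPM with luciferase and 4.69, 4.45 and 4.07 CPM with SETBP1-D868N. All SETBP1-D868N libraries were higher, by a log2 fold change of 2.17 (SE 0.13), or 4.51-fold. Car3, an isoform of low activity known from muscle and fat, had 0.313, 0.261 and 0.303 CPM with luciferase, from 17 to 21 counts per library. It reached 2.18, 1.74 and 1.42 CPM with SETBP1-D868N, without overlap, which is 6.05-fold or 2.60 (SE 0.22) in log2. By size of the rise, Car3, Car1 and Car2 ranked 40, 53 and 69 among the 15794 genes.

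Car13, a further cytosolic isoform, rose little. It had 14.8, 15.2 and 13.98 CPM with luciferase and 17.3, 16.9 and 15.8 CPM with SETBP1-D868N. The groups did not overlap but nearly touched, and the log2 fold change was 0.19 (SE 0.054). That call was lost without luciferase 3 (0.16), without SETBP1-D868N 1 (0.16) or without SETBP1-D868N 2 (0.17). Car7, a cytosolic isoform known from brain, was low, at 18 to 42 counts per library. It had 0.454 ± 0.131 CPM (SD, n = 3) with luciferase and 0.507 ± 0.181 with SETBP1-D868N, groups that overlapped.

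Car13, Car1, Car3 and Car2 lie in this order within 259.0 kb on chromosome 3 (GRCm38, GENCODE M21), at chr3:14641727-14663002, chr3:14766216-14808368, chr3:14863512-14872523 and chr3:14886273-14900770. Car1 is on the minus strand and the other 3 on the plus strand. The 3 members with log2 fold changes from 1.93 to 2.60 are the adjacent Car1, Car3 and Car2, while Car13, whose start lies 124.5 kb before the left end of Car1, had 0.19. Protein-coding neighbours within 500 kb of the run were compared as well. E2f5, a cell cycle transcription factor gene before Car13, rose by 0.33 (SE 0.097, edgeR adjusted p 0.0146), and Gm9733 beyond Car2 fell by 0.79 (SE 0.077, edgeR adjusted p 5.59e-06). Lrrcc1 (log2 fold change 0.12, SE 0.053) and Sirpb1a (−0.62, SE 0.47) were not called, and Ralyl and Slc7a12 had 0 counts in every library of both experiments.

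**Figure D3:**
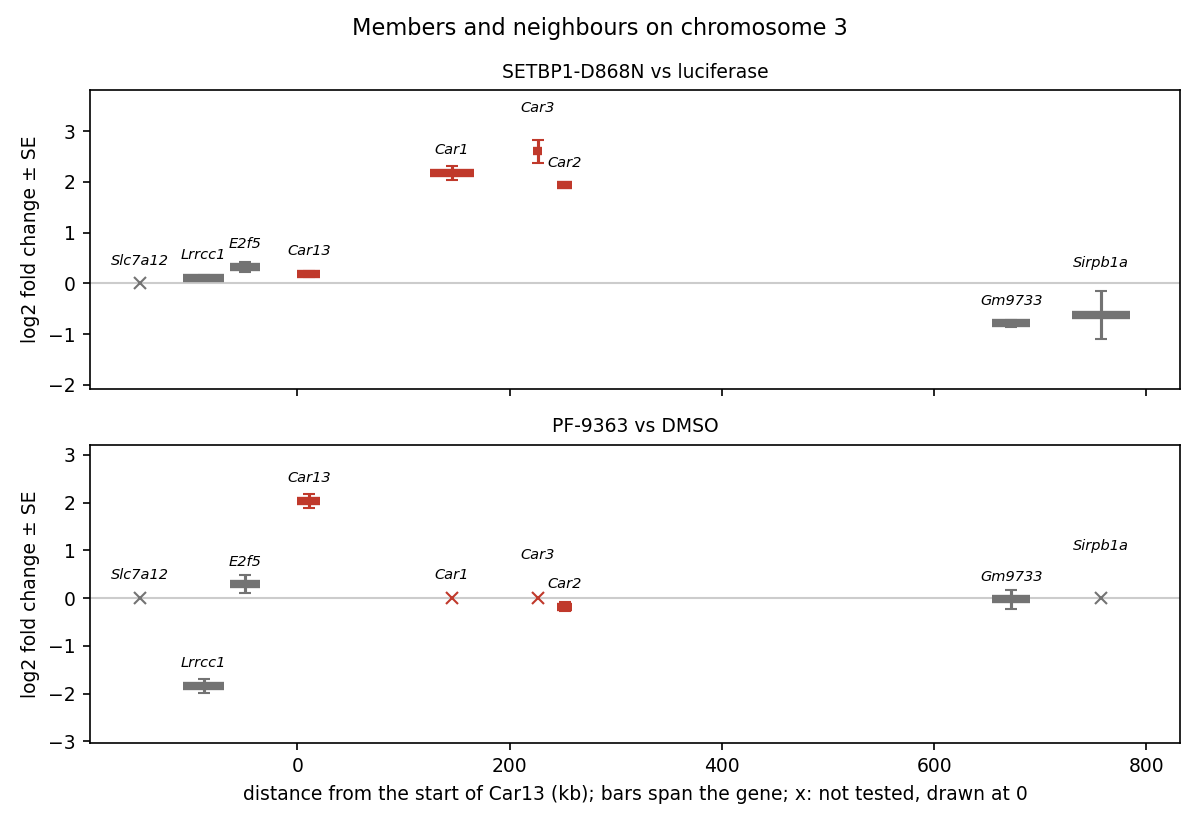
Log2 fold change ± SE (y) of members (red) and protein-coding neighbours (grey) against the distance in kb from the start of Car13 (x), for each comparison; bars span the gene, crosses at 0 mark genes that were not tested, and Ralyl, with no counts, lies beyond the left edge. Car1, Car3 and Car2 stand at 1.93 to 2.60 with SETBP1-D868N and Car13 at 2.03 with PF-9363.

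Markers of red cell precursors moved with this rise. Of 11 erythroid genes in the table, 8 were tested, 4 were called higher (Hbb-bt, Klf1, Epor and Rhag) and 0 lower. The shares over all genes tested were 24.5% higher and 22.7% lower. The erythroid genes are meant below. The summed level of the 11 erythroid genes was 13.7 to 15.1 CPM with luciferase and 22.9 to 24.6 CPM with SETBP1-D868N. Hbb-bt, an adult beta globin gene, made up much of that, going from 2.07 to 7.84 CPM on average. Hba-a2 and the red cell anion exchanger Slc4a1 stayed under 0.05 CPM on average in both groups. The part of these cells in the change of Car1, Car2 and Car3 was not tested. Mast cell and basophil genes went both ways, with 5 of 10 higher and 5 lower.

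Of the mitochondrial and surface enzymes, Car5b (chrX:163976822-164027997, minus strand) had 11.6, 11.5 and 10.5 CPM with luciferase and 5.96, 7.24 and 7.44 CPM with SETBP1-D868N. All 3 SETBP1-D868N libraries were lower, by a log2 fold change of −0.70 (SE 0.084). Car4 (chr11:84957786-84966044, plus strand) had 2.16, 2.01 and 2.43 CPM with luciferase and 1.28, 1.13 and 1.19 CPM with SETBP1-D868N, again without overlap, a difference of −0.87 (SE 0.14) in log2. Car12 (chr9:66713686-66766845, plus strand) went the other way. It had 7.44, 7.34 and 6.86 CPM with luciferase and 11.7, 10.3 and 9.73 CPM with SETBP1-D868N, higher by 0.55 (SE 0.077) in log2. Beside the fall of Car4 and Car5b, 9 of the 9 monocyte, macrophage and osteoclast genes tested were called lower. Calcr, also listed, had too few counts for a test. The summed level of the list was 815 to 858 CPM with luciferase against 505 to 540 CPM with SETBP1-D868N. Shares over all genes tested were 22.7% lower and 24.5% higher. Neutrophil genes were lower in 6 of 8 cases and higher in 2, with a summed level of 24043 to 25036 CPM against 15712 to 18170 CPM, and megakaryocyte genes lower in 5 of 7 and higher in 1. The part of these cells in the change of Car4, Car5b or Car12 was not tested. Car7 lies at chr8:104534689-104550343 on the plus strand.

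**Figure D4:**
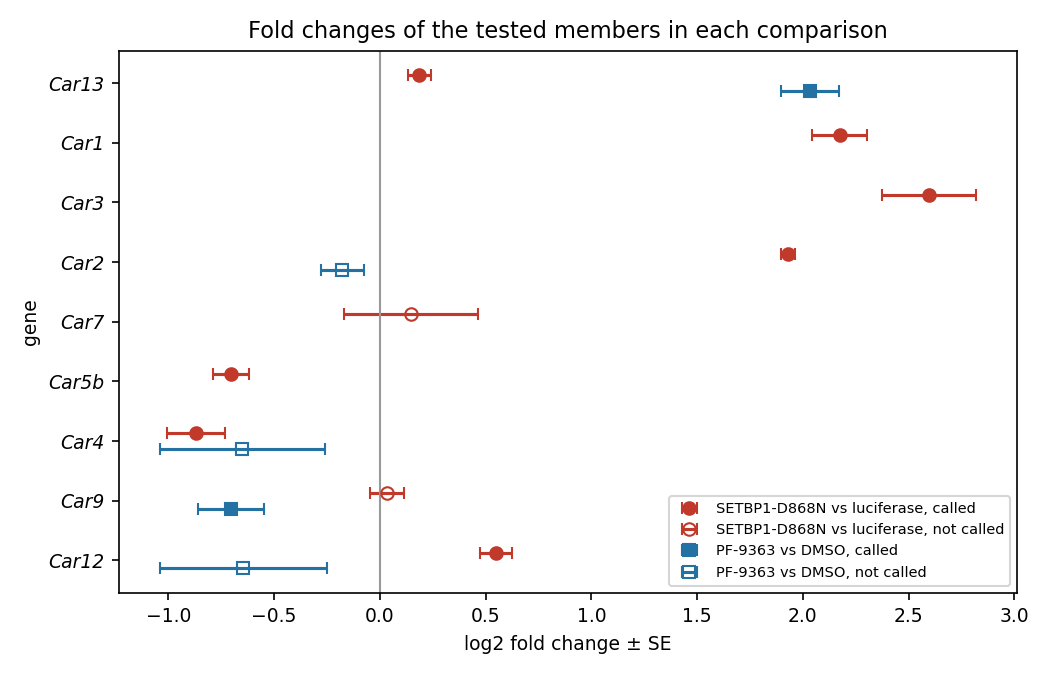
Points give the log2 fold change and bars its SE, in red circles for SETBP1-D868N against luciferase and in blue squares for PF-9363 against DMSO; filled symbols were called at an edgeR adjusted p under 0.05, and members without a blue symbol did not pass the count filter there. Car1, Car2 and Car3 stand apart on the right in red, and Car13 in blue.

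Car9 (chr4:43506966-43513729, plus strand) was not called while a list of other hypoxia genes fell. It had 6.12, 7.09 and 7.06 CPM with luciferase and 6.60, 7.18 and 6.97 CPM with SETBP1-D868N. The libraries overlapped, and the log2 fold change of 0.035 (SE 0.080) became −0.032 without luciferase 1. In the same fit 12 of 12 hypoxia-responsive genes were called lower, against 22.7% of all genes tested. Their median log2 fold change was −0.53, with a range from −1.91 (Adm) to −0.22 (Vegfa). Adm entered the test through the luciferase group, where 3 libraries met the minimum against 1 with SETBP1-D868N, which held 10, 5 and 9 counts of it. Bnip3, a mitophagy receptor gene, fell by 1.08 (SE 0.21) and Egln3, an oxygen-sensing hydroxylase gene, by 0.83 (SE 0.14). All 12 lay below Car9, although the difference of each from Car9 was not tested. Exons of Car9 overlap Gm12454 on the opposite strand, which had 3.56 ± 0.503 and 4.18 ± 0.317 CPM (SD, n = 3). How strand was counted is not given in the sources used here, so reads of this pair cannot be told apart.

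The stretch before the RefSeq start of Car9 is shown because it holds the core letters of a hypoxia element. These are the 250 bases upstream of the RefSeq start (GRCm38.p6, plus strand, chr4:43506776-43507025), with matches in capitals.
Car9: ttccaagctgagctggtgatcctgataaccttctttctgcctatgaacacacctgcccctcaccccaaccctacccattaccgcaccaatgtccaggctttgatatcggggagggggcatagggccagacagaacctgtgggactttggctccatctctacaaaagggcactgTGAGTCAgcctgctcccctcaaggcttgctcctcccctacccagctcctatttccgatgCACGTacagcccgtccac
ACGTG, the hypoxia element core, was found on the minus strand, so that it reads CACGT here, from position −18 relative to the start. TGANTCA, the letters of an AP-1 site, was found from position −77. The 2 matches do not overlap. GENCODE M21 places the start of Car9 further upstream, so the last 60 bases of the stretch, with the CACGT match, lie inside the gene by that annotation, and the TGANTCA match lies before it. Windows of 300 bases (250 before and 50 after the start) were available from RefSeq for 5 members, Car4, Car5b, Car7, Car9 and Car12, and not for Car1, Car2, Car3 and Car13. Of these, Car4 also held ACGTG, from base 3 after its start on the minus strand. AGATAA, a motif known from erythroid transcription factors, matched in 1 of the 3 windows of Car7 alone. Over all 32851 windows, 19.6% held ACGTG, 11.2% AGATAA and 7.81% TGANTCA on either strand. A match of letters is not a measured binding site.

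PF-9363 libraries were then set against DMSO libraries, all carrying the mutant. Only 5 of the 9 members passed the count filter among 13456 genes tested. Car13 was called higher and Car9 lower, while Car2, Car4 and Car12 were not called. Of all genes tested, 76.0% were called, 36.6% higher and 39.4% lower. Groups did not overlap for the same 2 of the 5 members, against 70.3% of all genes. The median log2 fold change was −0.64 over the 5 members and −0.038 over all genes. Scaling by library size alone shifted the median of all genes by −0.23, so directions here are relative to the scaling. With it the members called were 1 higher and 3 lower, since Car2 (−0.41) and Car12 (−0.87) were added.

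Car13 had 7.22, 8.46, 7.76 and 6.07 CPM in DMSO libraries 1 to 4 and 33.8, 24.3, 27.8 and 34.1 CPM with PF-9363. Every treated library lay well above every control. The log2 fold change was 2.03 (SE 0.14), or 4.09-fold, and it was 1.80 under library-size scaling. On the same stretch of chromosome 3, Car2 had 26.4, 28.0, 32.3 and 30.1 CPM with DMSO and 25.5, 24.3, 24.7 and 28.7 CPM with PF-9363. These overlapped, with a log2 fold change of −0.18 (SE 0.10). The neighbour Lrrcc1, a centrosome gene, fell by 1.84 (SE 0.15, edgeR adjusted p 1.04e-10), whereas E2f5 (0.29, SE 0.19) and Gm9733 (−0.025, SE 0.20) were not called.

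Car9 had 11.2, 9.66, 11.1 and 12.3 CPM with DMSO and 7.40, 7.07, 5.75 and 6.82 CPM with PF-9363. All treated libraries were lower, by a log2 fold change of −0.70 (SE 0.16). The overlapping Gm12454 was called lower as well (−0.64, SE 0.29, edgeR adjusted p 0.0496), although its groups overlapped. Of the hypoxia genes, 11 of 12 were called lower, against 39.4% of all genes tested. The median log2 fold change of the 12 was −2.35, and Ndrg1 was not called (−0.098, SE 0.10). Egln3 fell by 3.80 (SE 0.082), Bnip3 by 3.76 (SE 0.078) and Pdk1, a kinase that restrains pyruvate oxidation, by 3.12 (SE 0.084). Adm, among the 11, passed the filter through the DMSO group alone and had at most 2 counts in a treated library, so its fitted fold change is not given. Of the 12, 10 lay below Car9 and 2 above.

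**Figure D5:**
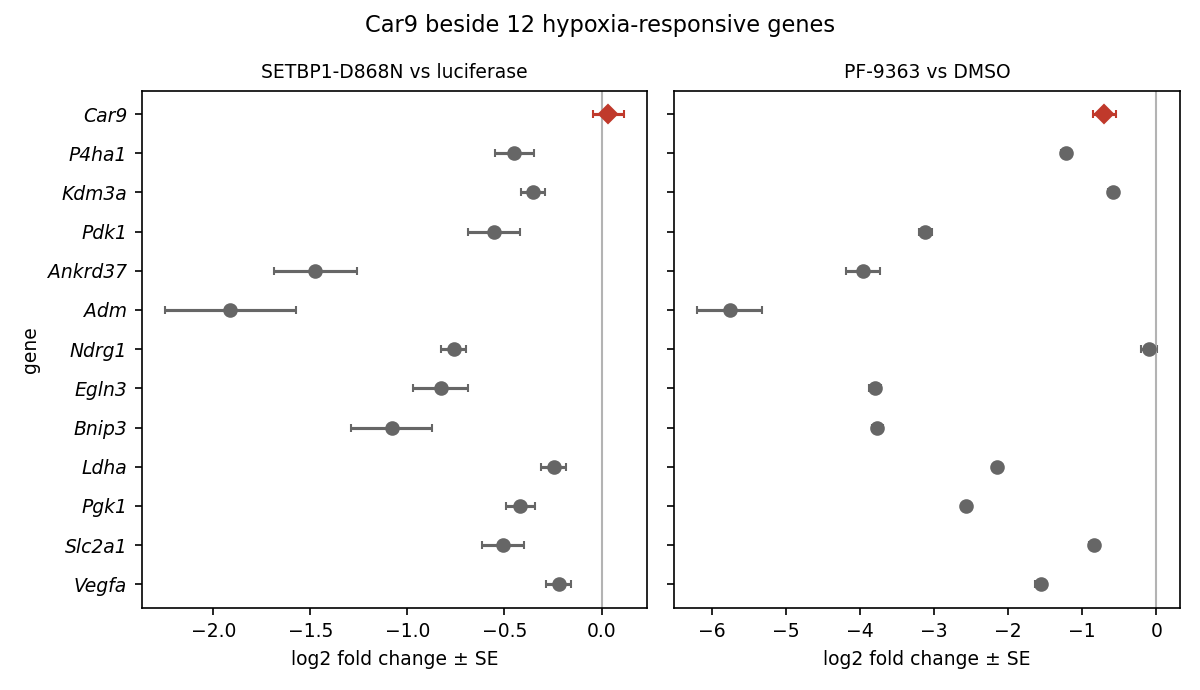
Log2 fold change ± SE (x) of Car9 (red) and of 12 hypoxia-responsive genes (grey), with SETBP1-D868N (left) and PF-9363 (right); the x ranges differ. Car9 is at 0.035 on the left, to the right of all 12, and at −0.70 on the right, where 10 of the 12 lie further left; the right-hand value of Adm is a fitted value from at most 2 counts per treated library.

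Car4 and Car12 were not called in the main fit. Car4 had 4.45, 10.1, 7.66 and 14.5 CPM with DMSO and 4.42, 4.76, 9.48 and 5.41 CPM with PF-9363, so the control libraries alone spanned more than a 3-fold range. Its log2 fold change was −0.65 (SE 0.39). It passed without DMSO 1 (−0.88) or PF-9363 3 (−0.91), with no robust estimation (−0.65) and without the count filter (−0.67). Car12 had 1.56 ± 0.379 CPM with DMSO and 0.979 ± 0.415 with PF-9363 (SD, n = 4), with a log2 fold change of −0.64 (SE 0.39). It passed the count filter through the DMSO group, where all 4 libraries met the minimum against 1 with PF-9363.

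The other 4 members did not pass the filter and were not tested in the second experiment. Car1 had 4, 5, 4 and 1 counts with DMSO and 0 in every PF-9363 library, where a count of 0 allows up to 0.308, 0.386, 0.466 and 0.325 CPM in libraries 1 to 4. The groups did not overlap, but the DMSO mean of 0.340 ± 0.175 CPM (SD, n = 4) exceeds the limits of PF-9363 libraries 1 and 4 and not those of libraries 2 and 3. Car1 was called lower in a fit without the count filter, which rests on the few DMSO counts given here. Car3 had 1 to 4 counts with DMSO and 0, 0, 0 and 5 with PF-9363. Car5b had 22, 8, 10 and 8 counts with DMSO and 7, 3, 5 and 4 with PF-9363, and Car7 2 to 5 and 2 to 13. For Car3, Car5b and Car7 the CPM of the groups overlapped.

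Among the 7 family genes that are no members, only Car8 was called in either comparison. Car8, a relative that has lost catalytic activity, had 14.2, 15.0 and 15.7 CPM with luciferase and 5.93, 5.49 and 4.79 CPM with SETBP1-D868N. It fell by 1.47 in log2 (SE 0.078, edgeR adjusted p 5.95e-08). With DMSO it had 1.29, 2.39, 1.96 and 1.54 CPM and with PF-9363 7.20, 7.33, 9.01 and 7.25 CPM, a rise of 2.09 in log2 (SE 0.24, edgeR adjusted p 5.13e-09). Both pairs of groups were clear of each other. Car15 was tested in the first experiment (−0.31, SE 0.31, edgeR adjusted p 0.444) and Car14 in the second (−0.12, SE 0.21, edgeR adjusted p 0.621). Car6, a secreted isoform, had 2, 1, 0 and 1 counts with DMSO and 3, 11, 9 and 11 with PF-9363, without overlap. It did not pass the count filter, and it was called higher in a fit without that filter (3.27, SE 0.81, edgeR adjusted p 1.52e-04) and in the 5 fits leaving out a library in which it passed. Car10 had 0 counts in every library.

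Enzymes of this family work with carriers of bicarbonate, protons, lactate and water, and 47 genes from families of such carriers were listed. With SETBP1-D868N, 37 were tested, 3 were called higher and 13 lower, which became 7 and 13 under library-size scaling. Over all genes tested, 47.2% were called, 24.5% higher and 22.7% lower. The median log2 fold change of the 37 genes was −0.15. Of 17 genes of the Slc4 and Slc26 families, listed as bicarbonate carriers though not every Slc26 gene need be one, 11 were tested. Slc26a3, a chloride-bicarbonate exchanger, rose by 0.81 (SE 0.099, edgeR adjusted p 3.61e-05). Slc4a8 fell by 0.72 (SE 0.083, edgeR adjusted p 2.11e-05), as did Slc26a11 and Slc26a2, by 0.56 and 0.25. Of 12 proton and lactate exporter genes, the lactate carrier Slc16a1 rose by 0.40 (SE 0.034, edgeR adjusted p 1.76e-06). Its relative Slc16a3 fell by 0.71 (SE 0.15, edgeR adjusted p 0.0182), a call lost without luciferase 2 or 3 or SETBP1-D868N 1 or 2. Of 12 genes of the vacuolar proton pump and acid secretion, 5 were lower, by 0.15 to 0.19, and of 6 water channels Aqp3 alone was called, lower by 1.04 (SE 0.083, edgeR adjusted p 1.28e-06).

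With PF-9363, 30 of the 47 were tested, 20 were called higher and 9 lower, with a median log2 fold change of 0.69. Over all genes tested, 76.0% were called, 36.6% higher and 39.4% lower. All 11 tested genes of the proton pump list were higher. Atp6v0d2, a pump subunit known from osteoclasts and macrophages, rose from 20.3 ± 3.33 to 410.1 ± 53.3 CPM (SD, n = 4), which is 4.33 in log2 (SE 0.12, edgeR adjusted p 4.20e-13). Atp6v0a1 rose by 2.25 (SE 0.066, edgeR adjusted p 4.01e-22) and Atp6v1b2 by 1.66 (SE 0.067, edgeR adjusted p 5.72e-19). Beside this, 8 of the 9 monocyte, macrophage and osteoclast genes tested were called higher. Their summed level went from 409 to 509 up to 2966 to 3590 CPM, while the osteoclast receptor gene Calcr had 0 counts in every library of experiment 2. Mast cell and basophil genes moved as well, with 9 of 10 called higher and a summed level of 1298 to 1649 CPM with DMSO and 4955 to 5961 CPM with PF-9363. Of 8 neutrophil genes, 2 were higher, Ltf by 1.11 and Mmp8 by 1.86 in log2, and 3 were lower. Among the lower, Mpo, a granule peroxidase gene, went from 2315 to 6.34 CPM on average, and Elane, a granule protease gene, from 1450.0 to 1.74 CPM. The summed level of the 8 neutrophil genes was 17171 to 20394 CPM with DMSO and 16414 to 17821 CPM with PF-9363. The part of these cells in the change of Car13, Car9 or the pump genes was not tested. Of the Slc4 and Slc26 genes listed as bicarbonate carriers, 6 were higher and 1 lower, led by Slc26a3 at 1.96 (SE 0.29, edgeR adjusted p 4.72e-07) and Slc26a11 at 1.77 (SE 0.17, edgeR adjusted p 2.65e-10). Exporters went mostly down. Slc16a3 fell by 1.81 (SE 0.062, edgeR adjusted p 1.66e-20) and its chaperone Bsg by 1.49 (SE 0.066, edgeR adjusted p 6.44e-18), whereas the proton channel gene Hvcn1 rose by 1.27 (SE 0.065, edgeR adjusted p 1.25e-16). Of the water channels, Aqp9 rose by 3.16 (SE 0.090, edgeR adjusted p 1.07e-17). Aqp1 and Aqp11 were called lower, but both passed the count filter through the DMSO group alone, and Aqp1 had 11, 16, 11 and 12 counts with DMSO and 2, 1, 3 and 4 with PF-9363.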

How the data were processed

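Raw counts, with a gene symbol on each line, were deposited by the authors as 1 table per experiment, per the labels. STAR and DESeq2 and the build GRCm38 (mm10) are named without a role, per the submitters' processing notes. The counting program, annotation and strand handling are not given in the sources used here. Groups came from the sample titles, and 0 columns lacked a sample.

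Each experiment was fitted alone in R 4.3.3. The filterByExpr rule of edgeR 4.0.16 chose the genes (minimum count 10, minimum total 15), which were scaled by TMM and compared with its quasi-likelihood test (robust estimation, group as the sole factor), adjusted by Benjamini-Hochberg over all tested genes and called under 0.05. SE is the absolute log2 fold change over the square root of F. The test was tested on simulated data. Alternatives were RLE or library-size scaling, other filters, DESeq2 1.42.0, limma-voom 3.58.1, no robust estimation, the replicate number as a block, and each library left out. Replicates differed by more than sampling noise (chi-square per degree of freedom at least 2.21).

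Members and lists were chosen with earlier results of these data known. Named genes are the members, the rest of the family, protein-coding neighbours within 500 kb, up to 3 called genes per direction of each pathway list, and the 3 genes nearest in pattern to each of the 3 members of highest mean CPM. Likeness was the Euclidean distance of log2(CPM + 1) centred on the control mean. Ahsp, an erythroid gene, was not analysed here. Hypoxia, erythroid and neutrophil genes named as examples were picked after their values were seen.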

Additional observations from a re-analysis of the deposited data

Results flagged for a closer look

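In 17 sets of 4 libraries (each member by DMSO and PF-9363 group, less the 1 set with 0 counts throughout), 2 held a library far from the other 3. The rule was the Dixon ratio of gap to range. Its usual chance rate assumes normal values and is not known for counts this low, so none is given. A lone non-zero library among zeros is flagged whatever its count, as for Car3. Car5b in DMSO 1 was at 2.18 CPM (22 counts), against 0.724 to 0.935 CPM in the other DMSO libraries. Car3 in PF-9363 4 was at 0.541 CPM (5 counts), against 0 in the other PF-9363 libraries. Neither gene was tested in that experiment.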

How the results depend on the processing

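With SETBP1-D868N, 7 members were called, and 6 to 7 with each library left out; with PF-9363, 2 were called, 2 to 3 with a library left out, and 4 both under library-size scaling and without the count filter, the latter testing all 9 (Car1 and Car4 added, both lower). The calls of Car1, Car2, Car3, Car4, Car5b and Car12 with SETBP1-D868N held in all 14 alternatives and those of Car9 and Car13 with PF-9363 in all 16. Uncalled values changed sign for Car7 without luciferase 3 (−0.062) or SETBP1-D868N 2 (−0.061), in a leave-one-out range up to 0.41, and for Car9 without luciferase 1 (−0.032), in a range up to 0.073; the cause was not tested. Library-size scaling moved the share of higher calls over all genes from 51.9% to 62.1% with SETBP1-D868N and from 48.1% to 36.2% with PF-9363. Same-numbered replicates did not pair (correlation of deviations −0.229 to −0.0415 and −0.0374 to 0.0179; 0 of 6 and 0 of 8 libraries correlated best with their own number), and a fit with the replicate block called 7 and 2 members, with 6640 and 10124 genes in all. Car1, Car3, Car5b and Car7 did not pass the count filter in the second experiment and have values without a test there. Depth was lower in that experiment. Mean CPM of Car1, Car3 and Car5b was also lower with DMSO (0.340, 0.261 and 1.16) than with SETBP1-D868N (4.40, 1.78 and 6.88). Car7 had 0.385 and 0.507 CPM.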

Other observations

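Car14, a membrane isoform outside the 9 members, differed between the tables rather than between groups. Libraries of experiment 1, the more deeply sequenced, held 0 to 1 counts of it, and those of experiment 2 held 30 to 64, or 5.02 ± 0.659 CPM with DMSO and 4.62 ± 0.780 with PF-9363 (SD, n = 4). Its exons overlap Aph1a on the opposite strand, which had 64.0 ± 1.47 CPM with luciferase and 76.0 ± 4.07 with DMSO. How strand was counted in each table is not given in the sources used here, so the counts of this pair cannot be told apart.

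Among 12375 other genes tested in both experiments, those nearest in pattern over the 14 libraries were Ahi1, Cd27 and Lhfp for Car2 (distances 0.83, 1.30 and 1.33 on the log2 scale, with a median of 3.63 over all genes). For Car13 they were Bmi1, Hbegf and Lat (0.457, 0.515 and 0.524, median 3.94), and for Car9 Ebag9, Sec22b and Prrc1 (0.220, 0.246 and 0.274, median 1.74). Ahi1 had log2 fold changes of 1.66 (SE 0.051) with SETBP1-D868N and −0.16 (SE 0.13) with PF-9363, beside 1.93 and −0.18 for Car2. Bmi1, a polycomb gene, had 0.23 (SE 0.046) and 1.99 (SE 0.079), beside 0.19 and 2.03 for Car13. Nearness in pattern over 4 groups is a description of these libraries.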
